A study of Aspergillus niger with 27 samples.

Results

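Sugar beet pulp compartment 6 and wheat bran compartment 7 are consecutively numbered parts of the same Aspergillus niger colony that lie over different plant residues. They were taken by these numbers, paired by plate, and make up 6 of the 27 libraries in the series, 3 per compartment. Each plate held liquid medium in separate wedges under a perforated membrane, and a colony inoculated at the centre spread over 9 compartments, of which 1 to 3 held glucose, 4 to 6 sugar beet pulp and 7 to 9 wheat bran. RNA was sequenced from mycelium cut from above each compartment of plates A, B and C. All groups are the same fungus on the same plates, with no mutant, added agent or separate control, and the labels used here name no strain and no colony age. The labels say that in every section the outer compartments face another carbon source on one side, but they give no map of the numbers, so whether 6 and 7 lay side by side is taken from their numbering alone.

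Aspergillus niger is a saprotrophic fungus that secretes enzymes to break down plant cell walls and takes up the sugars released. Sugar beet pulp is rich in pectin, whose breakdown releases galacturonic acid and arabinose, and wheat bran holds arabinoxylan and starch, which release xylose, arabinose and glucose. In this fungus the enzyme genes are switched by transcription factors that sense such sugars, among them GaaR for galacturonic acid, XlnR for xylose, AraR for arabinose and AmyR for starch, while CreA represses many of them where glucose is plentiful. The deposited table names genes only by numbered IDs, and 0 of its 11846 IDs were found in the available gene table, so no gene below is given a function and the enzyme and regulator genes just named could not be located.

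Compartment 6 libraries held 14257341 to 18070901 counts and compartment 7 libraries 16115557 to 24501824. The reads were more concentrated in compartment 7. The 20 most abundant genes took 25.8% ± 1.62 of its counts, against 15.6% ± 0.819 in compartment 6 (SD, n = 3 plates), with no overlap between the compartments. An exact two-sided permutation test gave p = 0.1, the smallest that 3 against 3 libraries allow. It shuffled all 6 libraries freely and did not use the pairing by plate. The TMM factors, which correct for such concentration, were 0.946 ± 0.0783 in compartment 7 and 1.46 ± 0.0907 in compartment 6. Genes with 10 or more counts numbered 10440 ± 64.1 and 10492 ± 276, and these ranges overlapped. Among the 6 libraries, the median absolute difference in log2 CPM (CPM being TMM-scaled read counts relative to library size) was 0.284 to 0.511 between plates within compartment 6, 0.370 to 0.503 within compartment 7, and 0.558 to 0.791 between the compartments of the same plate. The difference between the compartments thus exceeded that between plates for the typical gene, most on plate A at 0.791 and least on plate C at 0.558. In bulk mycelium, fewer hyphae of a kind and less RNA per hypha cannot be told apart.

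Among genes whose log2 CPM averaged at least 4 over the pair, the largest rises from sugar beet pulp 6 to wheat bran 7 were those of NRRL3_9569 and NRRL3_4330. NRRL3_9569 stood at 0.674, 1.24 and 0.401 CPM in compartment 6 of plates A, B and C, which are 15, 30 and 10 counts, and at 661.5, 244 and 402 CPM in compartment 7. The compartments were separated by more than 100-fold on each plate. In the edgeR quasi-likelihood test its log2 fold change from 6 to 7 was 9.00 (SE 1.0), with a Benjamini-Hochberg adjusted p of 4.7e-06. NRRL3_4330 went from 3.73, 42.7 and 33.1 CPM to 14647, 11786 and 6132 CPM on the same plates. The same edgeR test gave 8.90 on the log2 scale (SE 1.1, adjusted p = 9.2e-06). Within the pair, the plates differed in this gene mainly in compartment 6, where plate A lay lowest, and in compartment 7 plate C lay lowest. In compartment 7 this gene alone took 1.02% ± 0.377 of all counts, against 0.00378% ± 0.00288 in compartment 6 (SD, n = 3 plates).

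These genes behaved differently on the third substrate. NRRL3_9569 was low on glucose too, with compartment means of 1.22, 1.94 and 1.35 CPM in glucose 1, 2 and 3, and was above these levels in every wheat bran library. Plates A, B and C had 683, 124 and 420.2 CPM of it in compartment 8 and 892, 69.4 and 198 CPM in compartment 9. On plate B it was lower in 8 than in 7 and lower again in 9, while plate A was highest in 9. NRRL3_4330 was expressed on glucose, at means of 1718, 883 and 520.3 CPM in compartments 1, 2 and 3, and its means then ran through 323, 45.5 and 26.5 CPM over sugar beet pulp 4, 5 and 6. Its lowest compartment mean was therefore in compartment 6, next by number to a mean of 10855 CPM in compartment 7.

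In the other direction, NRRL3_11179 and NRRL3_2569 were higher over sugar beet pulp 6 than over wheat bran 7. Neither was confined to sugar beet pulp. NRRL3_11179 had means of 263, 852 and 762 CPM in glucose 1, 2 and 3. Its sugar beet pulp means, 578, 348.5 and 193 CPM in 4, 5 and 6, were lowest in 6. NRRL3_2569 had means of 25.5, 45.7 and 245 CPM in glucose 1, 2 and 3. Over sugar beet pulp 4, 5 and 6 its means were 301, 466 and 392 CPM. NRRL3_11179 stood at 246, 93.4 and 239 CPM in compartment 6 of plates A, B and C and at 5.06, 11.9 and 6.09 CPM in compartment 7. The log2 fold change from 6 to 7 was -4.81 (SE 0.91, edgeR adjusted p = 0.0019). Plate B had the smallest contrast, with the lowest value in 6 and the highest in 7, yet the compartments did not overlap. NRRL3_2569 stood at 483.5, 276 and 417 CPM in compartment 6 and at 14, 14 and 41.2 CPM in compartment 7, and fell by 4.32 on the log2 scale (SE 0.78, edgeR adjusted p = 0.0014). Without plate C both calls were lost, with log2 fold changes of -4.59 (edgeR adjusted p = 0.13) and -4.86 (edgeR adjusted p = 0.058), while those of NRRL3_9569 and NRRL3_4330 held without each plate.

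The level of NRRL3_2569 within wheat bran differed between compartments on every plate. Plate A had 14, 0.666 and 0.314 CPM in wheat bran 7, 8 and 9, plate B had 14, 3.00 and 2.30 CPM, and plate C had 41.2, 6.53 and 1.96 CPM. Compartment 7, which follows sugar beet pulp 6 by number, was thus the highest of the wheat bran compartments for this gene on all 3 plates. NRRL3_11179 showed no such order: its compartment 7 value lay below its compartment 9 value on all 3 plates, with compartment means of 7.67, 10.4 and 30.3 CPM in 7, 8 and 9.

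**Figure D1:**
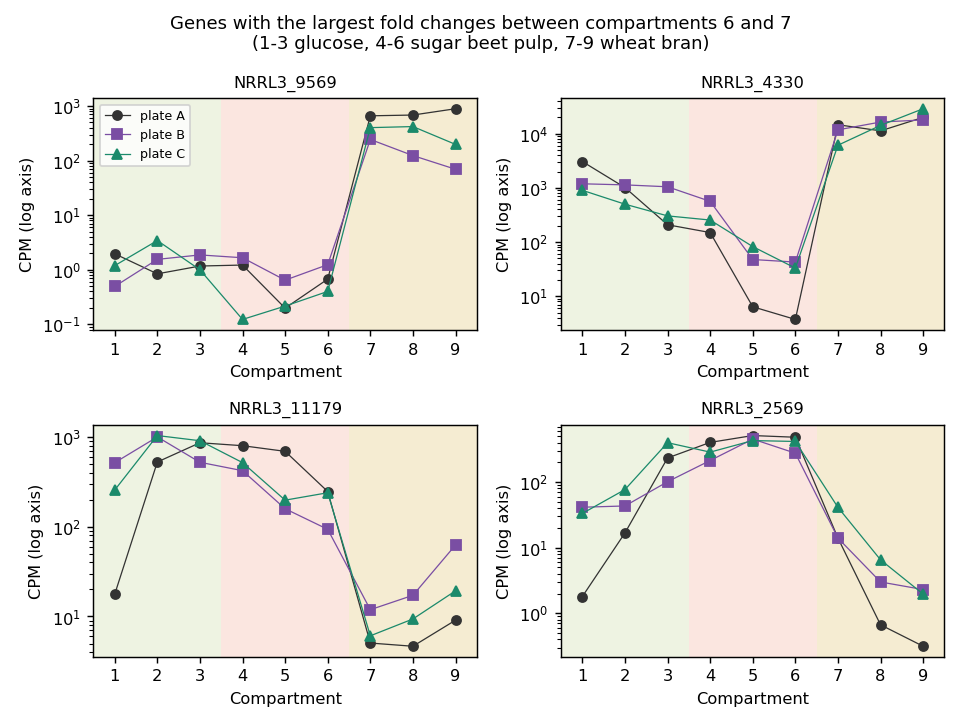
CPM (log axis) of the 4 named genes in each of the 27 libraries, by compartment, with a line per plate; shading marks glucose (1 to 3), sugar beet pulp (4 to 6) and wheat bran (7 to 9). NRRL3_9569 and NRRL3_4330 step up between 6 and 7 on all 3 plates, from at most 42.7 CPM to at least 244 CPM, and NRRL3_11179 and NRRL3_2569 step down.

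Across the transcriptome, 1979 of 10990 genes tested differed between compartments 6 and 7, which is 18%, and more genes were higher on wheat bran 7 than lower. By edgeR's quasi-likelihood test with the plate as a block and Benjamini-Hochberg adjusted p under 0.05, 1259 genes (11.5%) were higher in compartment 7 and 720 genes (6.55%) were lower. Of these, 1109 and 647 changed by 2-fold or more, and 301 and 107 by 4-fold or more. The median log2 fold change was 1.5 among the genes that rose, with quartiles of 1.19 and 1.96, and -1.42 among those that fell, with quartiles of -1.75 and -1.17. Over all genes tested the median was -0.00031. The direction was the same on all 3 plates for 98.4% of the called genes, against 54.7% of all genes tested. The test on these same plates favours genes that move alike on each plate, so this adds no separate support. The plates' own log2 differences correlated across genes with r of 0.642 between A and B, 0.657 between A and C and 0.527 between B and C, as a description, since genes are not independent replicates.

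The split between higher and lower genes rests on how libraries were scaled and on which libraries were fitted. With library size alone, the median over all genes moved to -0.62 on the log2 scale and 489 genes were higher and 2206 lower in compartment 7, while the 4 genes above kept their direction and their call. With compartments 6 and 7 fitted alone, 1168 genes were higher and 1042 lower. That left 52.9% of calls as higher, against 63.6% in the full fit. The sugar beet pulp and wheat bran libraries alone gave 1775 higher and 1503 lower (54.1% higher). Without plate A, 472 genes passed the edgeR test, and without plate C, 118 did, of which 117 were among the 1979.

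**Figure D2:**
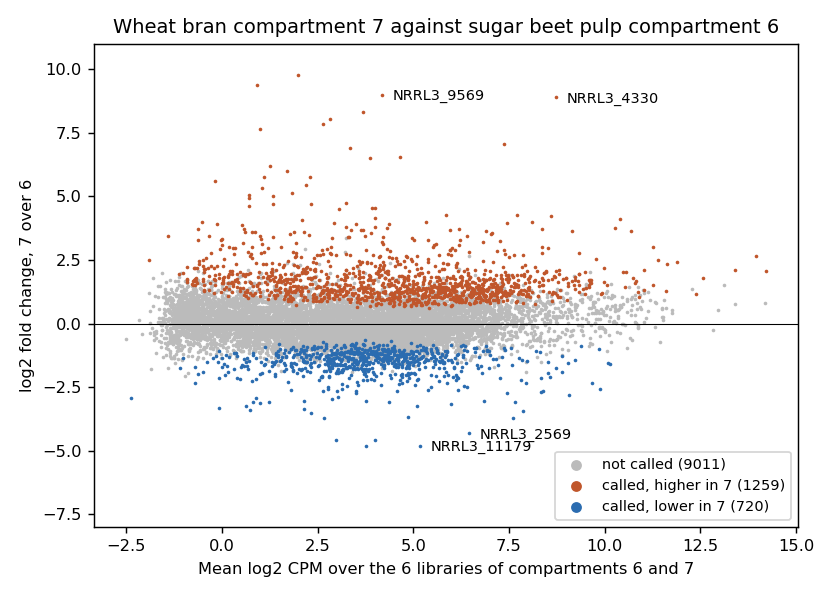
Log2 fold change from compartment 6 to 7 against the mean log2 CPM over the 6 libraries, a point per gene for 10990 genes, coloured by edgeR call. The 1259 genes called higher reach log2 fold changes above 9 and the 720 called lower stay above -5.

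In each of 4 ranges of mean level more genes were called higher than lower in compartment 7. Of the 466 genes whose log2 CPM averaged at least 8 over the 6 libraries, 23.4% were called higher in compartment 7 and 4.29% lower. Among the 5029 genes between 0 and 4, the shares were 9.05% and 7.60%, and among the 4257 between 4 and 8 they were 14.9% and 7.14%. Among the 1238 genes under 0 they were 4.77% and 1.13%. This is a description of these libraries, and the scaling and choice of libraries stated above bear on it. The CPM of all 3 plates lay higher in 7 than in 6, with no overlap, for 2238 genes (20.4%), and lower for 2036 genes (18.5%). Of the 1979 called genes, 94.6% showed no overlap between the compartments, which choosing genes by the test favours. For 6 of 10990 genes tested, CPM was under 1 in all libraries of compartment 6 and 10 or more in all of 7. The other direction held 0 genes. Under 1 CPM does not mean no reads. It was met by 1173 genes in all libraries of compartment 6 and by 890 in all of 7. More genes had a wide spread between plates in compartment 7. The SD of log2 CPM over plates exceeded 1 for 649 genes (5.91%) there, against 394 genes (3.59%) in compartment 6. The median SDs were closer, at 0.397 in compartment 7 and 0.354 in compartment 6. The largest median absolute difference between plates, 0.511, was within compartment 6.

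Of the 3 genes that drew most reads in the pair, NRRL3_1234 and NRRL3_1627 rose on wheat bran 7 and NRRL3_1522 did not pass the test. CPM counts reads per gene without regard to length, so levels of different genes are not compared. NRRL3_1234 stood at 9349, 9921 and 8847 CPM in compartment 6 of plates A, B and C and at 51945, 36148 and 29906 CPM in compartment 7, a rise of 2.07 on the log2 scale (SE 0.65, edgeR adjusted p = 0.033). NRRL3_1627 went from 7804, 7851 and 4114 CPM to 53688, 27314 and 43690 CPM, a rise of 2.64 on the log2 scale (SE 0.58, edgeR adjusted p = 0.0060). On every plate compartment 7 was above compartment 6 for both genes, and plate A was the highest of compartment 7. Both calls were lost in the edgeR test without plate A, with adjusted p of 0.16 and 0.066, and without plate C, with adjusted p of 0.20 and 0.15. NRRL3_1522 stood at 13802, 15985 and 12849 CPM in compartment 6 and at 24282, 28224 and 22074 CPM in compartment 7, which do not overlap. Its log2 fold change of 0.81 (SE 0.40, edgeR adjusted p = 0.15) did not pass, and its share of reads without TMM scaling was 2.08% ± 0.277 and 2.36% ± 0.455 (SD, n = 3 plates).

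To see whether the consecutively numbered pair differs from other wheat bran and sugar beet pulp pairs, compartments 8 and 5, and 9 and 4, were set beside it. These pairs hold no library of compartments 6 or 7, although all libraries come from the same 3 colonies. Between 8 and 5, 4047 genes (36.8%) differed by the same edgeR test, 2006 higher (18.3%) and 2041 lower (18.6%) on wheat bran. Between 9 and 4, 5099 genes (46.4%) differed, 2403 higher (21.9%) and 2696 lower (24.5%). With library size alone the splits became 710 higher and 4601 lower, and 891 higher and 5964 lower. The median absolute log2 fold change over all genes was 0.578 from 6 to 7, 0.730 from 5 to 8 and 0.911 from 4 to 9. The median SE was close to equal for the first of these pairs, at 0.379 and 0.382. Counts of called genes do not by themselves show that pairs differ, so the difference between pairs was tested gene by gene.

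No gene was shown to differ in its change between the pair 6 and 7 and the pair 5 and 8. By edgeR's quasi-likelihood test of that difference, 0 of 10990 genes (0%) passed, and 202 (1.84%) had an unadjusted p under 0.05. If no gene differed, 550 would be expected under that p. DESeq2 also called 0, and 235 had an unadjusted p under 0.05. In edgeR that count ran from 44 of 11029 genes without plate C to 643 of 11052 without plate A. It thus depends on the fit, and a count below 550 is not read as likeness of the pairs. The median SE of this difference was 0.534 on the log2 scale, so a 2-fold departure came to less than 2 SEs for a typical gene. Of the 1259 genes called higher in 7 than in 6, all 1259 were also higher in 8 than in 5, and 1081 (85.9%) were called there. Those 1081 are 53.9% of the genes called higher in 8. Of the 720 genes called lower in 7, 717 were lower in 8 than in 5, and 635 (88.2%) were called, which is 31.1% of that list. Over all genes tested 50.3% were higher in 8 than in 5. The exceptions were NRRL3_4168, NRRL3_5548 and NRRL3_10677, named after their values were seen, with log2 fold changes of -1.27, -1.47 and -1.05 from 6 to 7 and of 0.10, 0.01 and 0.15 from 5 to 8. Each stood at under 10 CPM in mean in compartments 6 and 7.

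The sizes of the changes were compared in both directions, since a list chosen on one pair is selected for large values there. Genes called from 6 to 7 had a median log2 fold change of 1.60 (higher) and -1.62 (lower) from 5 to 8, against 1.5 and -1.42 in the pair that chose them. Genes called from 5 to 8 had medians of 1.53 and -1.38 there, and of 1.19 and -0.934 from 6 to 7. Of these, 97.9% of the 2006 higher and 99.1% of the 2041 lower genes moved the same way from 6 to 7. Those that missed the call from 6 to 7, 925 and 1406 genes, still had medians of 0.801 and -0.745. Over all genes the log2 fold changes of the pairs correlated with an r of 0.891, and the change from 6 to 7 was the larger in size for 34.8% of genes. These are descriptions across genes that share colonies and scaling.

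**Figure D3:**
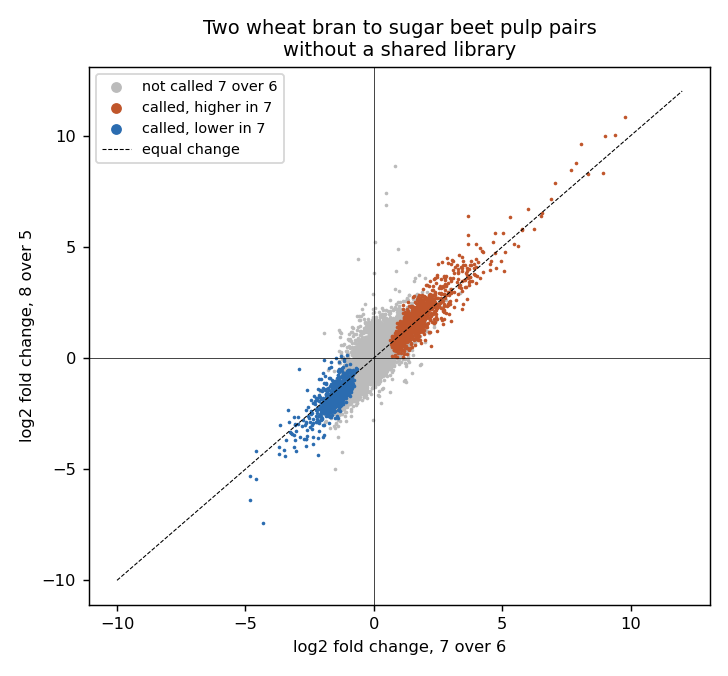
Log2 fold change from compartment 5 to 8 against that from 6 to 7, a point per gene for 10990 genes, coloured by the edgeR call from 6 to 7; the dashed line marks equal change. All 1259 genes called higher in 7 lie above 0 on the vertical axis, and 717 of the 720 called lower lie below it.

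Genes with low unadjusted p for a difference between these pairs are given as values, since none passed. All were picked once values had been seen, among genes with a log2 CPM averaging at least 4 and the same sign on all 3 plates. NRRL3_3452 and NRRL3_3453, which carry neighbouring IDs, were alike in compartments 6 and 7 and unlike in 5 and 8. NRRL3_3452 stood at 22.0, 29.9 and 29.7 CPM in compartment 6 and at 24.6, 15.8 and 43.0 CPM in compartment 7 of plates A, B and C, against 25.1, 66.0 and 180.7 CPM in compartment 5 and 11.3, 16.6 and 7.76 CPM in compartment 8. Compartments 6 and 7 overlapped, and 5 and 8 did not, with plate C the most separated. The difference between the pairs was 2.74 for NRRL3_3452 (SE 0.80, edgeR adjusted p = 1) and 2.30 for NRRL3_3453 (SE 0.70, edgeR adjusted p = 1) on the log2 scale. Without plate C these fell to 1.32 and 1.13. In the other direction, NRRL3_10195 rose from 5 to 8 by a log2 fold change of 2.56 (SE 0.43, edgeR adjusted p = 4.6e-04), and its 1.14 (SE 0.41) from 6 to 7 had an edgeR adjusted p of 0.056. The difference between these was -1.41 (SE 0.58, edgeR adjusted p = 1). NRRL3_2569, described above, fell by 7.41 from 5 to 8 on the log2 scale and by 4.32 from 6 to 7, a difference of 3.09 (SE 1.0, edgeR adjusted p = 1, unadjusted p = 0.0054).

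Whether compartments 6 and 7 share levels that set them apart from the compartments beyond them was tested as their mean against the mean of 5 and 8. In the edgeR test 0 of 10990 genes (0%) met the threshold, and 402 (3.66%) had an unadjusted p under 0.05. That is below the 550 expected if no gene differed, but the count depends on the fit. In edgeR it was 99 of 11029 genes without plate C and 584 of 10780 with compartments 5 to 8 alone. It also exceeded 550 without plate A. A count below 550 is therefore not read as a lack of shared levels. DESeq2 called 1 gene, and 472 had an unadjusted p under 0.05. That gene, NRRL3_2832, named after its values were seen, stood at 83.9, 15.3 and 11.5 CPM in compartment 6 and at 26.6, 3.03 and 36.6 CPM in compartment 7 of plates A, B and C, against 14.2, 7.39 and 3.28 CPM in compartment 5 and 10.8, 1.54 and 3.17 CPM in compartment 8. On each plate, 6 was above 5 and 7 was above 8. Its log2 difference was 2.14 in both tools, with an adjusted p of 0.041 in DESeq2 and 0.99 in edgeR.

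Genes with low unadjusted p for this measure, taken in the same way after their values were seen, are again given as values without a call. NRRL3_701 stood at 426.5, 173 and 77.4 CPM in compartment 6 and at 50.1, 4.30 and 154 CPM in compartment 7, against 151, 163 and 57.3 CPM in compartment 5 and 6.66, 1.77 and 3.95 CPM in compartment 8. Plates A and B had the higher level on sugar beet pulp 6 and plate C on wheat bran 7. NRRL3_730 followed the same order, with 262, 157 and 91.0 CPM in compartment 6 and 57.2, 20.5 and 118 CPM in compartment 7. Their mean over 6 and 7 exceeded that over 5 and 8 by 2.45 (SE 0.66) and 1.5 (SE 0.37) on the log2 scale, with an edgeR adjusted p of 0.99 for both. Without plate C the value of NRRL3_701 was 1.62 and that of NRRL3_730 was 1.15. In the opposite sense, NRRL3_5424 had its lowest compartment means in 6 and 7, at 461 and 383 CPM, against 1134 in 5, 770.0 in 8 and 3094 in 4. Its difference was -1.14 (SE 0.35, edgeR adjusted p = 0.99). NRRL3_1766 was at 27.6 and 25.5 CPM in mean in 6 and 7, and at 48.1 in 5 and 41.1 in 8. The difference was -0.73 (SE 0.23, edgeR adjusted p = 0.99). This gene had means of 708.5, 1271 and 859 CPM in glucose 1, 2 and 3, 307 CPM in 4 and 49.4 CPM in 9.

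The pair 9 and 4, by contrast, differed from the pair 7 and 6 in many genes. In a comparison added after the data had been seen, 1438 of 10990 genes (13.1%) passed the edgeR test of the difference between the changes from 6 to 7 and from 4 to 9. The change was more positive from 6 to 7 for 1047 of them (9.53%) and more negative for 391 (3.56%). With library size alone the split was 1526 and 142. Without plate C 15 genes passed this test, and without plate A 762. Compartment 9 stood apart as a set of libraries, with 8006891 to 11847598 counts and TMM factors of 0.462 to 0.651, and the part of this in the result was not tested.

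The genes below had the largest differences each way among those past the test with a log2 CPM averaging at least 4 over these compartments and the same sign on all 3 plates, and none of them passed the edgeR test from 6 to 7. Larger differences among genes outside these limits are not described. NRRL3_2407 stood at 451, 626 and 479 CPM in compartment 6 and at 751, 494 and 633 CPM in compartment 7, which overlap, and at 28.9, 40.3 and 31.6 CPM in compartment 9, against 707.5, 691 and 656 CPM in compartment 4. Its changes differed by 4.61 on the log2 scale (SE 0.47, edgeR adjusted p = 1e-05). NRRL3_876 was likewise at 42.2 and 42.7 CPM in mean in 6 and 7, and at 38.1 and 1.84 CPM in 4 and 9, a difference of 4.33 (SE 0.60, edgeR adjusted p = 1.2e-04). Its level in 9 rests on 10, 18 and 2 counts on plates A, B and C. NRRL3_6039 stood at 163.5, 131 and 301 CPM in 6 and at 205, 221 and 232 CPM in 7, and reached 980, 1318 and 1523 CPM in 9, against 50.6, 120.4 and 125 CPM in 4, a difference of -3.52 (SE 0.73, edgeR adjusted p = 0.0027). NRRL3_8952 had means of 131 and 151.5 CPM in 6 and 7 and of 52.1 and 546 CPM in 4 and 9, a difference of -3.37 (SE 0.72, edgeR adjusted p = 0.0036). For NRRL3_2407 and NRRL3_876 the values in compartment 9 lay below all those in 4, 6 and 7, and for NRRL3_6039 and NRRL3_8952 they lay above. The calls of NRRL3_876, NRRL3_6039 and NRRL3_8952 were lost without plate C, with differences of 3.86, -3.37 and -2.65 and edgeR adjusted p of 0.056, 0.11 and 0.17.

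**Figure D4:**
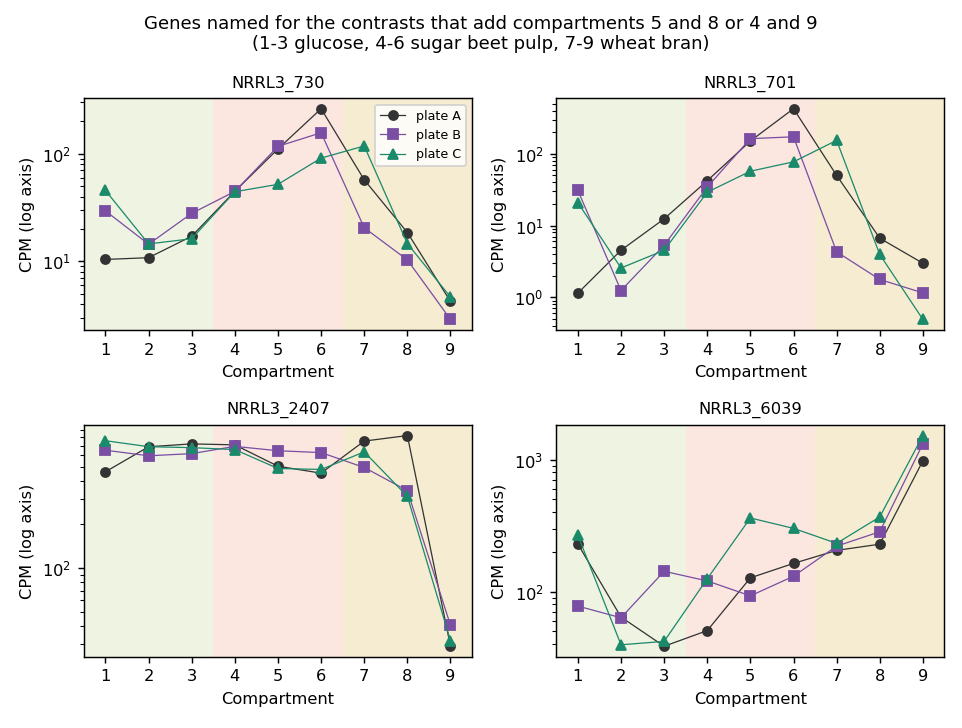
CPM (log axis) of NRRL3_730, NRRL3_701, NRRL3_2407 and NRRL3_6039 in each of the 27 libraries, by compartment, with a line per plate; shading marks the 3 substrates. NRRL3_730 and NRRL3_701 have their highest value of a plate in 6 (plates A and B) or 7 (plate C), and NRRL3_2407 and NRRL3_6039 overlap between 6 and 7 and lie outside that range in 9.

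The lists called from 6 to 7 mostly kept their direction in the pair 9 and 4. Of the 1259 genes higher in 7, 86.1% were higher in 9 than in 4, against 47.2% of all genes, and 816 (64.8%) were called. Of the 720 genes lower in 7, 90.7% were lower in 9, against 52.8% of all genes, and 390 (54.2%) were called. A turn of direction, called in both pairs, was found for 46 genes (3.65%) of the higher list and 4 (0.556%) of the lower list. Over all genes tested, 24.5% were called lower and 21.9% higher in 9 than in 4. The difference between pairs passed the edgeR test for each gene that turned. Genes called in opposite directions are chosen for a large difference, so this adds no separate support. In the lower list the genes that turned were NRRL3_2445, NRRL3_7971, NRRL3_11363 and NRRL3_10677, named after their values were seen. Their log2 fold changes were -1.10, -1.19, -1.17 and -1.05 from 6 to 7 and 1.40, 1.06, 1.35 and 1.15 from 4 to 9.

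Followed across the whole colony, the called lists showed a step between 6 and 7 and smaller differences within each section. For the genes higher in 7, the median over genes of the mean log2 CPM was 4.32, 3.99 and 3.97 in sugar beet pulp 4, 5 and 6, and 5.50, 5.66 and 5.62 in wheat bran 7, 8 and 9. For the genes lower in 7 it was 4.05, 4.51 and 4.54 and then 3.03, 2.82 and 2.86. Over all genes tested it lay between 3.16 and 3.66. Levels in 6 and 7 chose these lists, so the step itself is no finding, while the other compartments hold separate libraries. On glucose, the genes higher in 7 had medians of 4.71, 4.52 and 4.37 in compartments 1, 2 and 3 and those lower in 7 had 3.46, 3.56 and 4.00, all between the levels of 6 and 7. By gene, the mean over glucose lay between the levels of 6 and 7 for 902 (71.6%) of the higher and 587 (81.5%) of the lower genes, against 45.5% of all genes. Genes chosen for a wide gap leave more room between its ends, so this share was read as a description. Glucose lay below both for 225 genes (17.9%) of the higher list and above both for 60 genes (8.33%) of the lower list, against 28.9% and 25.6% of all genes tested.

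**Figure D5:**
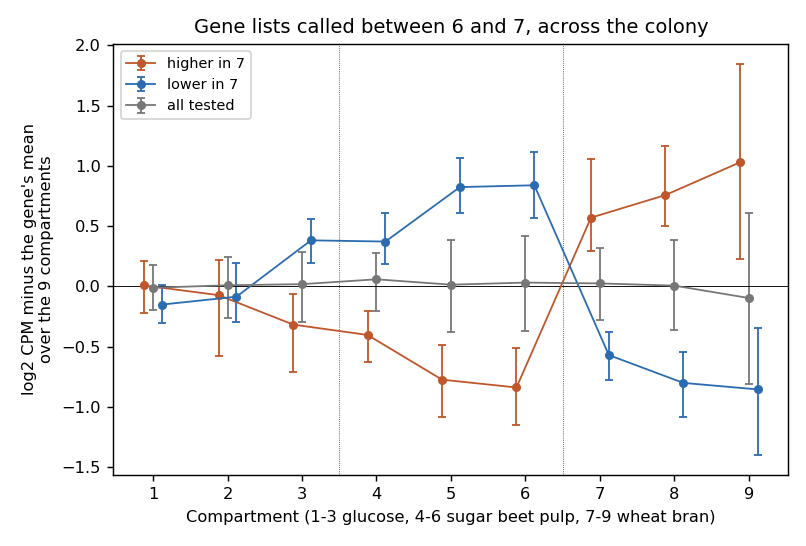
Median over genes of log2 CPM minus the gene's own mean over the 9 compartments, by compartment, for the 1259 genes higher in 7, the 720 lower in 7 and all 10990 tested; bars span the quartiles over genes. The lists lie farthest apart in compartments 5 to 9 and close to 0 in glucose 1 and 2; compartments 6 and 7 chose the lists.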

How the data were processed

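RNA of 27 mycelium libraries was measured by sequencing, 1 per plate and compartment. The authors deposited whole-number read counts per gene model in a single table with no normalization. Per the labels' protocols, cDNA was amplified with a low-input kit and sequenced on an Ion Proton, with no molecular identifiers mentioned. The submitters' processing notes list HTSeq and DESeq2 but no version or role. For the aligner, genome build, annotation and strand setting the choice was not given in the sources used here, so counts of close paralogs and overlapping genes are uncertain.

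From these counts, edgeR 4.0.16 in R 4.3.3 (quasi-likelihood F-test, TMM, filterByExpr, two-sided, Benjamini-Hochberg within a comparison, threshold 0.05) was fitted to all 27 libraries with 9 compartment groups and the plate as a block, leaving 16 residual degrees of freedom. The filter kept 10990 genes and left out 856. Each SE is the size of the fitted log2 value over root F. CPM are TMM scaled, with a prior count of 2 on the log scale. The pairing comes from the labels, where a plate is a single colony. Deviations from compartment means correlated between 6 and 7 with r of 0.274, 0.164 and -0.024 on plates A, B and C. No pair among the 6 libraries agreed within sampling noise (lowest chi-square per degree of freedom 76.9). Precision covers the spread between 3 plates.

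The naming rule took genes past the test whose log2 CPM averaged at least 4 and whose sign matched on all 3 plates, keeping the 2 largest changes each way since IDs carry no names. The added comparison with 9 and 4 used it too. The 3 genes with most reads were added; others are marked as named later. Comparisons and lists were chosen with earlier results of these data known. Planned enzyme and pathway lists could not be joined to the IDs and were not used. Alternatives were DESeq2 1.42.0, its size factors, library size alone, no filter, no block, subsets of libraries and leaving out each plate.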

Additional observations from a re-analysis of the deposited data

How the results depend on the processing

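For compartment 7 against 6, 1979 genes passed, and the count was 3278 with the sugar beet pulp and wheat bran libraries alone and 118 to 1676 when each plate was left out. Without the replicate block, that is unpaired by plate, it was 1606, of which 1594 were among the 1979. It was 2809 with DESeq2, 2210 with compartments 6 and 7 alone and 1891 to 2695 under the other settings. The difference from the pair 8 and 5 stayed at 0 genes in each of the 9 alternatives, and the shared level of 6 and 7 at 0 except for 1 gene with DESeq2. Leaving out each plate gave 205 to 3608 genes for 8 against 5 (4047 in the full data), 2918 to 4616 for 9 against 4 (5099) and 15 to 1246 for the difference between the pairs 7 and 6, and 9 and 4 (1438), the lowest each time without plate C; fewer libraries and 8 fewer residual degrees of freedom enter those fits. For that difference, the share of more positive changes was 72.8% in the full data, 91.5% with library size alone and 59.7% with DESeq2. Without plate C it was 100% of the 15 genes. For 8 against 5 and 9 against 4, library size alone left 13.4% and 13.0% of calls as higher, against 49.6% and 47.1%. The 4 genes named by rule for 7 against 6 kept direction throughout, and 38 of 40 alternative values kept the call. NRRL3_1522 passed in 1 alternative, the sugar beet pulp and wheat bran libraries alone (edgeR adjusted p = 0.041; 0.041 to 0.54 over its alternatives). The causes of these changes were not tested.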

Other observations

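Genes called from compartment 6 to 7 included runs of consecutive IDs that moved the same way. In the higher list 45 runs of 3 or more IDs held 156 genes (12.4% of the list), and in the lower list 13 runs held 42 genes (5.83%). The number of runs expected with 11.5% and 6.55% of genes called was not computed. These shares are therefore a description and do not compare the lists. The longest, of 8 IDs, ran from NRRL3_1333 to NRRL3_1340, with a median log2 fold change of 3.62 from 6 to 7 and 4.18 from 5 to 8, and gene values of 1.22 to 7.05. A run of 5 IDs from NRRL3_9567 to NRRL3_9571 had a median of 5.44 from 6 to 7 and 5.11 from 5 to 8, and held NRRL3_9569 and 2 of the 6 genes that were under 1 CPM in all libraries of 6 and at 10 CPM or more in all of 7. How IDs relate to positions in the genome is not given in the sources used here, and these genes were named after their values were seen.

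Some genes were high in a single library of a compartment. In compartment 7, 3 genes were 16-fold or more above both other plates in log2 CPM, all on plate B, and in compartment 6 there were 0. NRRL3_11025 had 1169, 16837 and 1157 counts in compartment 7 of plates A, B and C, NRRL3_11030 had 224, 4726 and 265, and NRRL3_6434 had 6, 154 and 7, all named after their values were seen. None of them passed from 6 to 7 in the edgeR test. In the comparison pairs, wheat bran 9 of plate A held 26 such genes, the most of any library, and wheat bran 8 of plate A held 11. NRRL3_37 had 6537 counts in that library and at most 28 in each of the other 26 libraries, and NRRL3_41 had 30997 and at most 189. Both were nonetheless called from 5 to 8, with log2 fold changes of 8.63 (SE 1.7, edgeR adjusted p = 0.0017) and 6.86 (SE 1.3, edgeR adjusted p = 0.0010), values that rest on 1 library, while from 6 to 7 they were 0.83 (SE 1.5) and 0.48 (SE 0.99).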
